A study of Mus musculus with 47 samples.

Results

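Expression of *Ppp1r14a* (ENSMUSG00000037166) and of 8 genes of the myelin sheath, *Mbp*, *Mobp*, *Mal*, *Cldn11*, *Mag*, *Mog*, *Cnp* and *Ugt8a*, was described in 2 brain regions of alpha-synuclein transgenic and wild-type mice. The 9 genes were found by their Ensembl identifiers among 33139 rows of the brainstem counts and 31751 rows of the hippocampus counts, and all 9 had a row in both. *Ppp1r14a* was selected on its measured values in brainstem, the genotype-by-diet interaction and the comparisons that form it, so its brainstem contrasts are given below as a description, with no test. The myelin genes were chosen for what they encode.

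Messenger RNA was sequenced from 23 brainstem and 24 hippocampus libraries of male C57BL/6 mice aged 12 months. Transgenic mice (TG) were homozygous for human alpha-synuclein with the A30P mutation, driven in neurons by a Thy1 promoter, and wild-type mice (WT) came from the same outcross and were bred as a parallel colony, so genotype and colony cannot be told apart. From 5 weeks of age the mice ate a standard diet (SD) or a high-fat diet (HFD). WT SD had 5 libraries in brainstem and 6 in hippocampus, and WT HFD, TG SD and TG HFD had 6 in each region. Brainstem here is the posterior medulla, and hippocampus the whole structure. Diets were randomized within litters.

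Myelin is the lipid-rich membrane that oligodendrocytes wrap around axons in the central nervous system. *Mbp* encodes myelin basic protein, which holds the inner faces of the membrane together, *Mobp* a small basic protein of the same compact layers, *Mal* a membrane protein that sorts cargo to myelin, and *Cldn11* the claudin of its tight junctions. *Mag* and *Mog* encode surface proteins, the first on the inner wrap that faces the axon and the second on the outermost layer. *Cnp* encodes the enzyme 2',3'-cyclic nucleotide phosphodiesterase of the cytoplasmic channels of myelin, and *Ugt8a* the enzyme that makes galactosylceramide, a main myelin lipid. *Ppp1r14a* encodes CPI-17, an inhibitor of myosin phosphatase known best from smooth muscle and also listed among genes of oligodendrocytes. The heavily myelinated tracts of the medulla make it richer in oligodendrocytes than the hippocampus.

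The sequences before the transcription start are shown for 5 of the genes, those that held at least 1 of the letter groups searched for. They are the 250 bases before a start that RefSeq gives on GRCm38.p6, for *Mag* 1 of its 3 starts, written 5′ to 3′, with capitals marking the letters searched for.
Ppp1r14a, chr7:29289070-29289319 on the plus strand: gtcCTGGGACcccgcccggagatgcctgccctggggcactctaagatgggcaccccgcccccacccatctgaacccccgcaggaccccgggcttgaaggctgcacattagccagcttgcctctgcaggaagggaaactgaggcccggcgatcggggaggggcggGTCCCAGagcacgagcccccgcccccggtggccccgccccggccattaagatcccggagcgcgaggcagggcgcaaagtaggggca
Mag, chr7:30914864-30915113 on the minus strand: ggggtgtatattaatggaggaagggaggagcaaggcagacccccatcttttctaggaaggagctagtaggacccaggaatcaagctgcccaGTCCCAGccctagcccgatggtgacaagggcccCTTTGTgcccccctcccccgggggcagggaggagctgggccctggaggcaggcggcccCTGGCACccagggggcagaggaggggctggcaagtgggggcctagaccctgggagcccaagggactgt
Cnp, chr11:100574689-100574938 on the plus strand: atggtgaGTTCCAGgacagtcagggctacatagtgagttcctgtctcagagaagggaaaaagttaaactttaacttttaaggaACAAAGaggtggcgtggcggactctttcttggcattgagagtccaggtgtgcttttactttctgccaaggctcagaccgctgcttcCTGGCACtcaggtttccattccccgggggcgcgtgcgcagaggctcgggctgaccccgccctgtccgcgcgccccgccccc
Mobp, chr9:120149492-120149741 on the plus strand: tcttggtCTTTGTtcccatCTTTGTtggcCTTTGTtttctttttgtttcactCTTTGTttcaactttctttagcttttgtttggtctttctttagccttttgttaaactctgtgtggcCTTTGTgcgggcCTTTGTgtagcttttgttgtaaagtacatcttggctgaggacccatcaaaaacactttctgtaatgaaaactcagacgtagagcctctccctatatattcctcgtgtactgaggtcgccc
Mog, chr17:37023399-37023648 on the minus strand: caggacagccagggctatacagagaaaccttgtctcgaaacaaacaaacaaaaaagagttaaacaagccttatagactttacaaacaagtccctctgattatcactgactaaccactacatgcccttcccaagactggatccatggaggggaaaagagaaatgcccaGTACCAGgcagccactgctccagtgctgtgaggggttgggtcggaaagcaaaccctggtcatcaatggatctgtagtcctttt
The letters were ACAAAG and ACAATG, the core bound by SOX10, and CTGGNAC, a looser pattern than the core bound by MYRF, on either strand. N is any base, so a match to CTGGNAC need not hold that core. Both factors are known to drive myelin genes. CTGGNAC lay 2 times in the sequence of *Ppp1r14a*, of *Mag* and of *Cnp*, and 1 time in that of *Mog*. On the strand of the match, N was G in both matches of *Ppp1r14a*. It was G and C in *Mag*, A and C in *Cnp* and T in *Mog*. Of the 3 starts of *Mag*, another held the same letters and the remaining one held none. CTGGNAC was present in 19.3% of all 32851 RefSeq promoters of 300 bases. ACAAAG lay 6 times in the sequence of *Mobp* and 1 time each in those of *Mag* and *Cnp*, against 18.7% of all promoters with at least 1. ACAATG, held by 12.6% of all promoters, was in none of the 8 genes with a sequence. *Mal*, *Cldn11* and *Ugt8a* had none of these letters. A match is a description of these letters and not of a bound site.

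Libraries held between 10020784 and 15078812 counts in brainstem and between 11945971 and 17328447 in hippocampus. The human transgene had 36959 to 72863 counts in TG libraries and 6 to 50 in WT libraries, so every library matched its genotype label. Libraries also differed in how their counts depended on base composition. This GC slope is the change of a library's log2 level, relative to the mean library, for each 10 percentage points of gene GC content. In brainstem it had medians of 0.0497 in WT SD, 0.132 in WT HFD, −0.0574 in TG SD and −0.0204 in TG HFD. In hippocampus the medians were 0.0232 in WT SD, 0.118 in WT HFD, −0.0259 in TG SD and −0.0553 in TG HFD.

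Per length, the 9 genes spanned a wide range of levels. Levels are given in CPM, counts scaled to a common library total, and in RPKM, which is CPM divided by exon length in kilobases. In RPKM, brainstem libraries had on average 863.8 ± 132.3 for *Mbp*, 350.1 ± 49.5 for *Mobp*, 182.9 ± 11.9 for *Cnp*, 181.7 ± 27.8 for *Mal*, 118.5 ± 15.9 for *Mag*, 111.2 ± 12.3 for *Mog*, 111.1 ± 7.65 for *Cldn11*, 46.6 ± 3.91 for *Ugt8a* and 10.5 ± 2.53 for *Ppp1r14a* (SD, n = 23). *Mbp* stood above *Mobp*, and *Mobp* above *Cnp*, in all 23 libraries. Neighbours that could not be ordered were *Cnp* and *Mal*, where *Cnp* was higher in 16 of 23 libraries, *Mag* and *Mog*, where *Mag* was higher in 17 of 23, and *Mog* and *Cldn11*, where *Mog* was higher in 11 of 23. In hippocampus the order ran from *Mbp* (201.1 ± 23.5) through *Mobp* (77.8 ± 13.8), *Mal* (58.6 ± 10.0), *Cnp* (57.8 ± 6.11), *Cldn11* (37.2 ± 4.49), *Mag* (25.0 ± 3.17), *Mog* (22.7 ± 3.37) and *Ugt8a* (8.71 ± 1.12) to *Ppp1r14a* (2.4 ± 0.559, SD, n = 24). There *Mal* was above *Cnp* in only 10 of 24 libraries, and *Mag* was above *Mog* in 20 of 24. *Ppp1r14a* was the lowest of the 9 in every library of both regions.

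*Ppp1r14a* was highest in brainstem of WT HFD mice. WT SD libraries had 13.1, 14.2, 12.3, 11.9 and 13.6 CPM. WT HFD libraries had 24.8, 18.1, 18.7, 20.3, 13.8 and 14.1 CPM. The 4 highest values of the region were all of WT HFD, while the other 2 libraries of that group lay within the range of the remaining groups. TG SD ranged from 11.3 over a median of 13.9 to 15 CPM and TG HFD from 7.19 over 13.5 to 14.1 CPM, so the groups overlapped. The means were 13.0 ± 0.918 (SD, n = 5) in WT SD, 18.3 ± 4.11 (n = 6) in WT HFD, 13.6 ± 1.36 (n = 6) in TG SD and 12.3 ± 2.66 (n = 6) in TG HFD. The spread was thus uneven, with a coefficient of variation of 7.04% in WT SD and 22.5% in WT HFD. In hippocampus the gene had 27 to 69 counts per library, and its means were 3.24 ± 0.363 CPM in WT SD, 3.84 ± 0.869 in WT HFD, 3.17 ± 0.862 in TG SD and 2.89 ± 0.69 in TG HFD (SD, n = 6 each). WT HFD had the highest mean and TG HFD the lowest, as in brainstem, and all 4 groups overlapped.

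**Figure D1:**
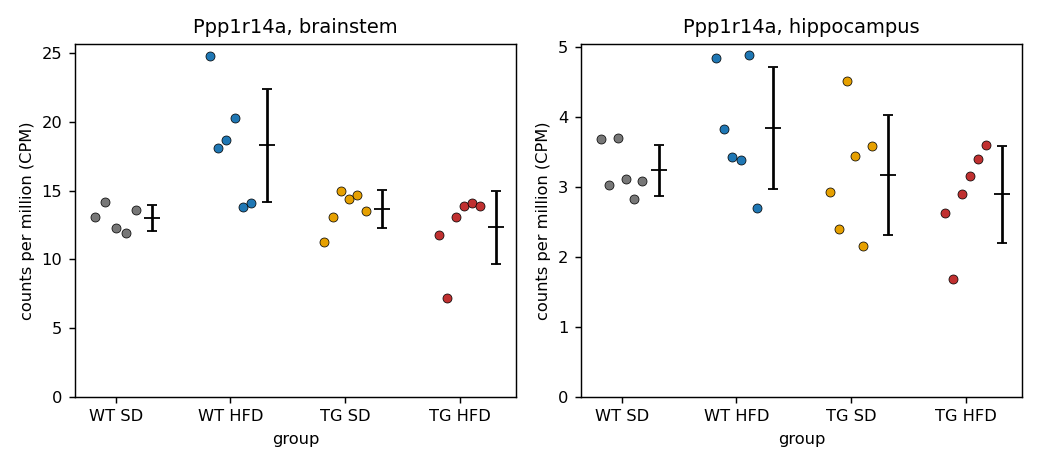
*Ppp1r14a* in CPM (vertical axis) in each library (points) of the 4 groups of brainstem and hippocampus, with the mean and SD of the group beside them. In brainstem 4 WT HFD libraries, at 18.1 to 24.8, lie above all others, and 1 TG HFD library lies lowest at 7.19.

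How large the *Ppp1r14a* difference was depended on the model. With 4 surrogate variables, estimated factors for variation that the groups do not explain, TG HFD was lower than WT HFD by 0.23 on the log2 scale (log2 fold change −0.23, SE 0.0916). Without surrogate variables this value was −0.56 (SE 0.136), and with a correction of each library for GC content and no surrogate variables it was −0.30 (SE 0.101). The genotype-by-diet interaction, the effect of HFD in TG minus that in WT, was −0.42 (SE 0.119), −0.63 (SE 0.2) and −0.49 (SE 0.148) in the same order. The surrogate variables held 86.5% of the variance of *Ppp1r14a* across brainstem libraries, against a median of 58.3% over all tested genes. Here and below, such a share is of the total variance, with differences between groups included. Without TG HFD replicate 3, the library with the lowest level and, at −0.325, the lowest GC slope, the interaction was −0.38 with surrogate variables and −0.51 without them. The direction was the same in all 3 models, but these use the counts that selected the gene, so this adds no support.

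**Figure D2:**
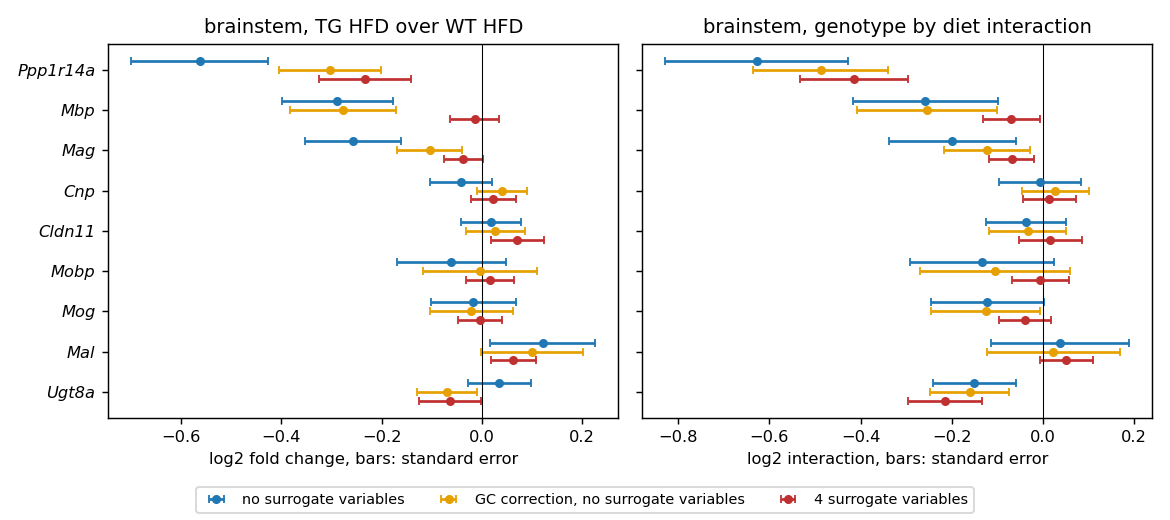
Log2 fold change of TG HFD over WT HFD (left) and log2 genotype-by-diet interaction (right) in brainstem for the 9 genes, under 3 models (colours), with bars of 1 standard error. *Ppp1r14a*, which was selected on these values, lies between −0.56 and −0.23 on the left, and *Mbp* lies at −0.29 without surrogate variables and at −0.01 with 4.

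None of the 8 myelin genes was called in any comparison of genotype or diet in brainstem. Calls needed an adjusted p no higher than 0.05 together with a log2 fold change of 0.3 or more in either direction. Of all 13340 genes tested in brainstem, 0.142% were called for TG SD over WT SD, 0.0525% for TG HFD over WT HFD, 0% for WT HFD over WT SD (724 genes at an unadjusted p of 0.05, and 1 called by DESeq2), 0.0075% for TG HFD over TG SD and 0.0075% for the interaction. With backgrounds this low, a count of 0 of 8 says little about these genes as a set. Across the 5 contrasts the log2 values of the 8 genes lay between −0.22 and 0.18 with standard errors of 0.0319 to 0.0803, and the lowest adjusted p was 0.26 (edgeR). At an unadjusted p of 0.05, *Ugt8a* passed in 3 contrasts (TG SD over WT SD, where 10.5% of all genes passed, WT HFD over WT SD, 5.43%, and the interaction, 4.83%) and no other gene in any, and DESeq2 called none.

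Among the structural proteins, *Mbp* came closest to the pattern of *Ppp1r14a* in its levels. Its lowest, median and highest values were 6586, 7076 and 7926 CPM in WT SD and 6496, 8115 and 10322 CPM in WT HFD. In TG SD they were 5999, 7296 and 7434 CPM, and in TG HFD 4216, 7248 and 7485 CPM. The 4 highest values of the region were of WT HFD, and the groups overlapped. The log2 fold change of TG HFD over WT HFD was −0.29 (SE 0.11, adjusted p = 0.166) without surrogate variables, −0.28 (SE 0.105, adjusted p = 0.285) with the GC correction and −0.01 (SE 0.0486, adjusted p = 0.993) with 4 surrogate variables. None of these passed the test, and the surrogate variables held 92.2% of the variance of *Mbp*. *Mobp*, by contrast, had medians of 2218 CPM in WT SD, 2301 in WT HFD, 2469 in TG SD and 2322 in TG HFD, in an overall range from 1878 to 3219. *Mal* ranged from 415.4 to 735.8 CPM in WT SD, from 430.2 to 529.2 in WT HFD, from 478.1 to 653.2 in TG SD and from 448.8 to 559.8 in TG HFD. Its highest value, in WT SD replicate 6, stood far from the next of that group at 484.9. *Cldn11* was the steadiest of the structural genes, with coefficients of variation between 6.82% and 7.49% in the 4 brainstem groups and means from 202.2 to 210.1 CPM.

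Of the surface proteins, *Mag* followed *Mbp* and *Mog* followed *Mobp* and *Mal*. *Mag* had medians of 468.1 CPM in WT SD, 553.8 in WT HFD, 457.9 in TG SD and 479.7 in TG HFD, with 620.6 as the highest value in WT HFD and 303.7 as the lowest in TG HFD. Its log2 fold change of TG HFD over WT HFD was −0.26 (SE 0.0962, adjusted p = 0.164) without surrogate variables, −0.10 (SE 0.0645, adjusted p = 0.485) with the GC correction and −0.04 (SE 0.0388, adjusted p = 0.965) with 4 surrogate variables, which held 97.1% of its variance. *Mog* ranged from 156.5 to 232.7 CPM in WT SD, from 172.7 to 214.8 in WT HFD, from 172.6 to 229.4 in TG SD and from 161.8 to 211.6 in TG HFD, with no group apart.

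The enzymes differed from one another. *Cnp* was nearly level, with group means of 671.6 ± 41.2, 677.8 ± 21.3, 655.9 ± 30.8 and 658.7 ± 71.3 CPM in WT SD, WT HFD, TG SD and TG HFD (SD, n = 5, 6, 6 and 6), and TG HFD replicate 3 was lowest at 524.4. *Ugt8a* had the lowest unadjusted p of the 8 genes. WT SD libraries had 174.2, 201.9, 184.5, 200.9 and 211.3 CPM, and the other groups ran from 194.0 to 237.3 in WT HFD, from 202.5 to 243.4 in TG SD and from 193.3 to 237.0 in TG HFD. WT SD was thus the lowest group, while overlapping with each of the others. The log2 fold change was 0.15 for TG SD over WT SD (SE 0.0514, adjusted p = 0.26) and 0.18 for WT HFD over WT SD (SE 0.0551, adjusted p = 0.896), and the interaction was −0.22 (SE 0.0803, adjusted p = 0.993). These comparisons share the WT SD libraries, and without WT SD replicate 6 the values were 0.04, 0.10 and −0.10. The surrogate variables held 30.3% of the variance of *Ugt8a*, the lowest share of the 9 genes.

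In hippocampus none of the 8 myelin genes was called either. Of 13272 genes tested there, 0.098% were called for TG SD over WT SD, 0.226% for TG HFD over WT HFD and 0% each for WT HFD over WT SD, TG HFD over TG SD and the interaction, where 851, 940 and 794 genes passed an unadjusted p of 0.05 and DESeq2 called 3, 2 and 1. All 8 genes had a log2 fold change below 0 for TG SD over WT SD, from −0.13 (*Mag*, SE 0.0736, and *Cldn11*, SE 0.0671) to −0.04 (*Mbp*, SE 0.0681), with a median of −0.08 beside a median of −0.001 over all genes, and the lowest adjusted p was 0.559. This direction turned without surrogate variables, where 5 of the 8 were above 0 and the values ran from −0.05 (*Mag*) to 0.08 (*Mobp*). In brainstem the same contrast was above 0 for all 8 genes with 4 surrogate variables and for 5 of 8 without them. For TG HFD over WT HFD in hippocampus the values ran from −0.16 (*Mal*, SE 0.0968) to 0.01 (*Ugt8a*, SE 0.108), with a lowest adjusted p of 0.565, and without surrogate variables 5 of the 8 were above 0, among them *Mal* at 0.15 (SE 0.119). At an unadjusted p of 0.05 none of the 8 genes passed in any of the 5 contrasts, and DESeq2 called none. *Ppp1r14a* had a mean count of 46.8 in hippocampus, below the minimum of 50, and was therefore not tested there. With a lower minimum it was tested. Its interaction was −0.07 (SE 0.248, adjusted p = 0.993) at a total count of at least 50. With the filterByExpr rule of edgeR it was −0.08 (SE 0.256, adjusted p = 0.989). Both fits held 4 surrogate variables, and no fit without them was made for this gene in hippocampus alone. Its group means above, which hold none, were highest in WT HFD and lowest in TG HFD, as in brainstem. The median GC slope of hippocampus libraries was also highest in WT HFD (0.118) and lowest in TG HFD (−0.0553). Whether the GC slope bears on these means was not tested.

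Whether the interaction differed between regions was tested in 1 model of all 47 libraries, which holds no surrogate variables. Between the separate fits of the regions with 4 surrogate variables, the same difference was above 0 for 3 of the 8 genes and below 0 for 5. In the joint model the difference, hippocampus minus brainstem, was above 0 for all 8 myelin genes, from 0.01 (*Cnp*, SE 0.152) to 0.26 (*Mbp*, SE 0.214), and none was called, as for 0% of the 13462 genes tested, of which 455 passed an unadjusted p of 0.05 and DESeq2 called 0 (lowest adjusted p of the 8, 0.972). At an unadjusted p of 0.05 none of the 8 passed, and DESeq2 called none. For *Ppp1r14a*, selected on its brainstem values, the difference is a description. It was 0.25 (SE 0.332), and −0.08 (SE 0.346) with a block for replicate number.

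The 2 regions differed far more than the groups. All 8 myelin genes were called lower in hippocampus than in brainstem, where 31% of the 13462 genes tested were called in that direction and 29.2% in the other. *Ppp1r14a* entered this model through its brainstem counts, since its mean count of 46.8 in hippocampus is below the minimum of 50, so its values are given without counting a call. The fold of brainstem over hippocampus was 5.19 for *Ugt8a*, 4.77 for *Mog*, 4.59 for *Mag*, 4.38 for *Mobp*, 4.21 for *Ppp1r14a* and 4.16 for *Mbp*, and it was 3.08 for *Cnp*, 3.02 for *Mal* and 2.9 for *Cldn11*. On the log2 scale the values of the 8 myelin genes ran from −2.37 (SE 0.0435) for *Ugt8a* to −1.54 (SE 0.0423) for *Cldn11*, with a median of −2.09 beside −0.02 over all genes, and the highest adjusted p was 7.53e-29, for *Mal*. The regions did not overlap for any of the 9 genes: on a common scale *Ppp1r14a* had at least 7.07 CPM in brainstem and at most 4.93 in hippocampus, and *Mal* at least 409.7 and at most 247.1. *Cnp*, *Mal* and *Cldn11* had the 3 smallest differences, from −1.62 to −1.54. *Mbp* followed at −2.06 (SE 0.0552), and *Ppp1r14a* at −2.08 (SE 0.0811) lay within 1 standard error of *Mbp* and *Mobp*. The levels come from whole tissue, where fewer cells of a type and less RNA per cell cannot be told apart. Whether libraries of the 2 regions were made together is not stated, so region and library batch cannot be told apart either.

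**Figure D3:**
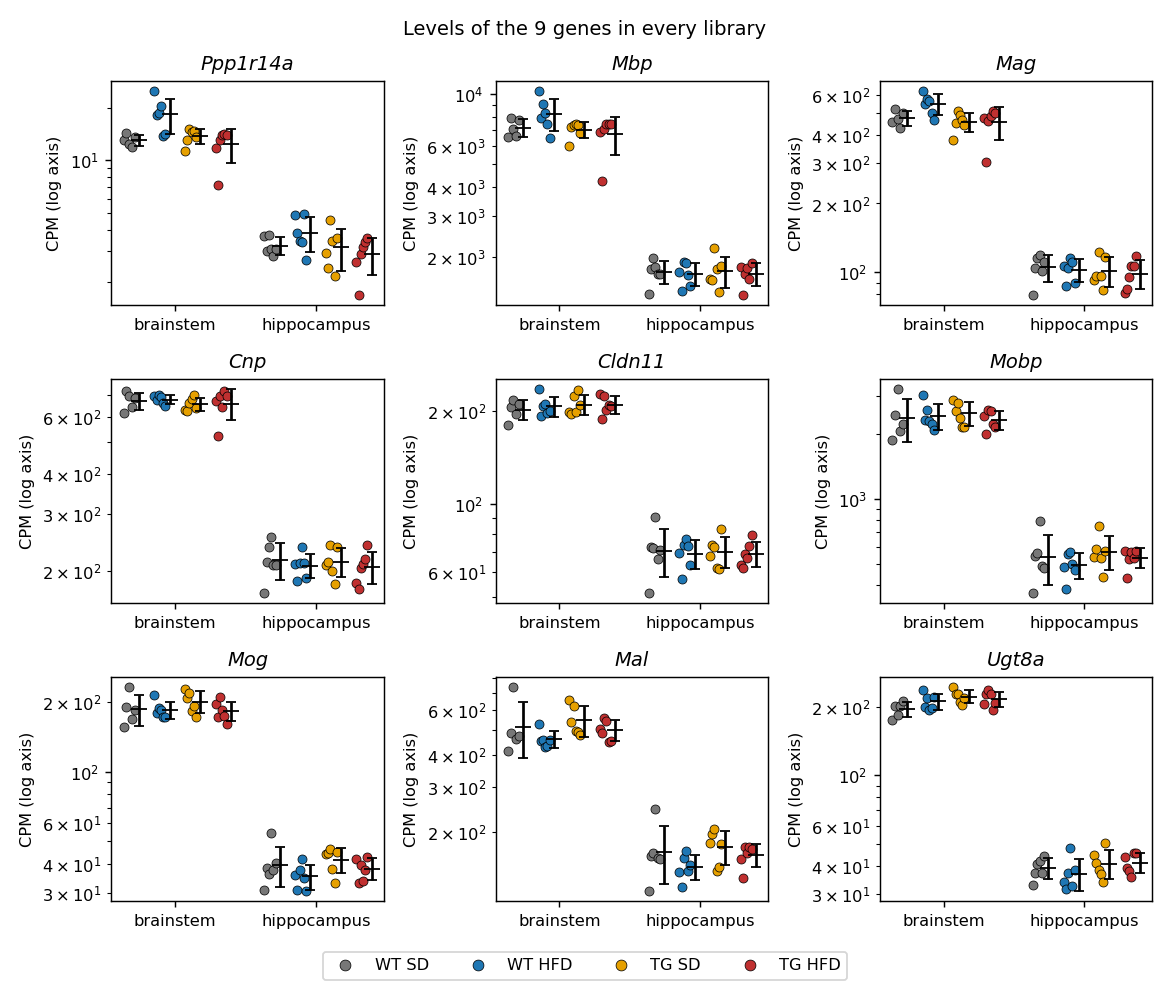
CPM of each of the 9 genes (log axis) in every library (points), coloured by group, with the mean and SD of each group beside its points. For each gene all brainstem libraries lie above all hippocampus libraries, and within a region the 4 groups overlap.

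The difference between regions was present in each group. In the groups taken singly, where 30.6% (WT SD), 31.6% (WT HFD), 31.6% (TG SD) and 30.3% (TG HFD) of genes were called lower in hippocampus, all 8 myelin genes were called lower in each. The fold of brainstem over hippocampus for *Ppp1r14a* ranged from 3.91 to 4.65 over the 4 groups, that for *Ugt8a* from 4.84 to 5.56 and that for *Mal* from 2.99 to 3.06. Whether these folds differed between groups was not tested beyond the difference in interaction between regions given above. Labels do not say whether libraries of the 2 regions come from the same mice, and the regions were not paired in the main model.

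Other genes of the oligodendrocyte lineage showed how far the difference reached. All 27 other genes of mature oligodendrocytes were called lower in hippocampus, with a median log2 fold change of −1.88, and all 5 of myelin lipid synthesis, with a median of −1.76. *Ermn*, of the myelin cytoskeleton, had −2.38 (SE 0.0476), *Opalin*, of the paranodal loops, −1.29 (SE 0.0662) and *Fa2h*, which hydroxylates myelin lipids, −1.95 (SE 0.0492). Of the 7 transcription factors that passed the count minimum in both regions, 5 were called lower and 1 higher. *Myrf*, the regulator of myelin genes, had −1.71 (SE 0.0422), while *Sox10* and *Olig2*, which are active through the whole lineage, had −1.11 (SE 0.0623) and −1.07 (SE 0.0491). Genes of precursors and newly formed oligodendrocytes went both ways, as did all genes (31% lower and 29.2% higher), with 6 of 12 called lower and 5 higher. The median log2 fold change of the 12 was −0.27. *Pdgfra*, *Cspg4* and *Gpr17*, which mark precursors and cells committed to differentiate, were higher in hippocampus by 0.31 (SE 0.034), 0.44 (SE 0.0596) and 0.47 (SE 0.0458). The 6 called lower are not named here, so these genes do not stand for the list.

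**Figure D4:**
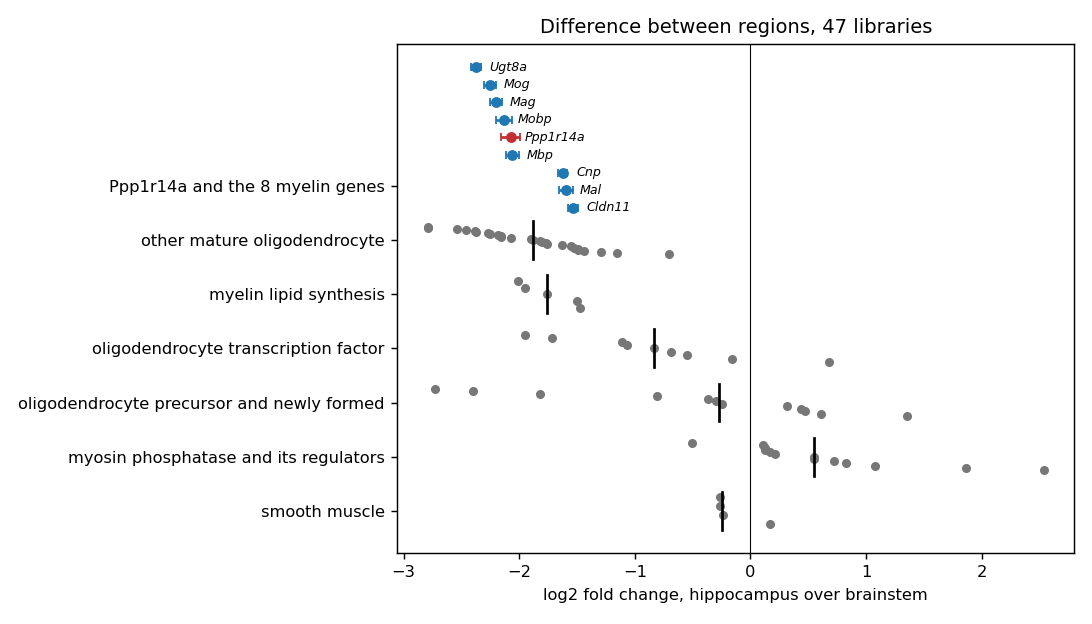
Log2 fold change of hippocampus over brainstem (horizontal axis) for *Ppp1r14a* (red) and the 8 myelin genes (blue), with bars of 1 standard error, and for the genes of 6 lists (grey points, black line at the median). The 9 genes lie between −2.37 and −1.54, within the range of the other genes of mature oligodendrocytes, and the myosin phosphatase list has a median of 0.55.

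Genes of the enzyme that CPI-17 inhibits were also measured. Of 13 genes tested for myosin phosphatase and its regulators, 7 were called higher and 1 lower in hippocampus, against 29.2% and 31% of all genes. *Ppp1r12a*, the targeting subunit, had 0.82 (SE 0.044), and *Ppp1cb*, the catalytic subunit, 0.13 (SE 0.0332), which is below the fold threshold. Among the relatives of *Ppp1r14a*, *Ppp1r14c* was higher in hippocampus by 0.55 (SE 0.0426) and *Ppp1r14b* differed by 0.12 (SE 0.0577), below the fold threshold. Of the smooth muscle genes, *Acta2*, its actin, had 7.94 to 19.7 CPM in brainstem and 9.78 to 24.4 in hippocampus, *Myh11*, its myosin, 9.24 to 15 and 6.74 to 15.5, and *Tagln* at most 1.47 CPM in either. None of the 4 smooth muscle genes tested was called between regions: *Acta2* had 0.17 (SE 0.0737) and *Myh11* −0.27 (SE 0.068), past the adjusted p but below the fold threshold, as were all 4.

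Within regions these lists gave no call. Of 54 oligodendrocyte genes beside the 9 that were tested in brainstem, and 51 in hippocampus, 0 were called in any of the 5 contrasts of each region. At an unadjusted p of 0.05, between 2 and 7 of the 54 passed in brainstem and between 0 and 5 of the 51 in hippocampus, while 4.83% to 10.5% of all genes passed in brainstem and 5.98% to 11.3% in hippocampus. For the interaction in brainstem, *Myrf* had 0.07 (SE 0.0538), *Sox10* −0.04 (SE 0.0707), *Ppp1r12a* 0.03 (SE 0.0802) and *Acta2* −0.07 (SE 0.176), all at an adjusted p of 0.993. The summed level of the 27 mature genes overlapped between the 4 groups of brainstem, from 10460 to 12655 CPM in WT SD, from 11180 to 13401 in WT HFD, from 11585 to 12926 in TG SD and from 10845 to 13052 in TG HFD.

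Library by library, the 9 genes did not vary as 1 block in brainstem. Levels were taken as log2 CPM minus the mean of the library's group, so that genotype and diet did not enter, and p values come from 100000 permutations within groups, adjusted over 72 pairs of genes. *Ppp1r14a* ran with *Mbp* (Pearson's r = 0.94, adjusted permutation p = 0.000144; Spearman's rho = 0.87, adjusted permutation p = 0.00018, n = 23). It also ran with *Mag* (r = 0.93, adjusted permutation p = 8e-05; rho = 0.90, adjusted permutation p = 9e-05) and with *Cnp* (r = 0.77, adjusted permutation p = 0.00072; rho = 0.66, adjusted permutation p = 0.00259). Without the 2 libraries farthest from the median of the second gene, r was 0.88, 0.88 and 0.63. With *Mog* the r was 0.18 (adjusted permutation p = 0.445; rho = 0.16, adjusted permutation p = 0.528), with *Mal* 0.00 (adjusted permutation p = 0.989; rho = −0.11, adjusted permutation p = 0.696) and with *Mobp* 0.34 (adjusted permutation p = 0.112; rho = 0.33, adjusted permutation p = 0.163). *Mog*, *Mobp* and *Mal* ran together, at r from 0.90 to 0.92, or 0.84 to 0.88 without the 2 farthest libraries. *Cldn11* lay between these sets and *Ugt8a* apart from the first, with r from −0.20 to −0.02 to its 4 genes. The 12 pairs across the 2 sets had r from −0.01 to 0.43. These sets were named after the values were seen and were not tested as sets.

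In hippocampus the 8 myelin genes ran together more evenly. Their 28 pairs had r from 0.41 to 0.95 with a median of 0.78, and 27 of the 28 had an adjusted permutation p of at most 0.05, against 12 of the 28 in brainstem. *Ppp1r14a* had r = 0.57 with *Mbp* (adjusted permutation p = 0.0166; rho = 0.40, adjusted permutation p = 0.114), 0.56 with *Mag* (adjusted permutation p = 0.0141; rho = 0.58, adjusted permutation p = 0.0149) and 0.49 with *Cnp* (adjusted permutation p = 0.0283; rho = 0.49, adjusted permutation p = 0.0385). With the other 5 genes it had r from −0.01 to 0.32. Against the mean of the 8 myelin genes, *Ppp1r14a* had r = 0.66 in brainstem (permutation p = 0.00398, adjusted over 26 relations 0.0201; rho = 0.53, permutation p = 0.0144, adjusted 0.0535, n = 23). This fell to 0.38 without the 2 farthest libraries, so the relation rested in part on them. In hippocampus r was 0.35 (permutation p = 0.0774, adjusted 0.167; rho = 0.34, permutation p = 0.126, adjusted 0.204, n = 24), and 0.57 without the 2 farthest.

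**Figure D5:**
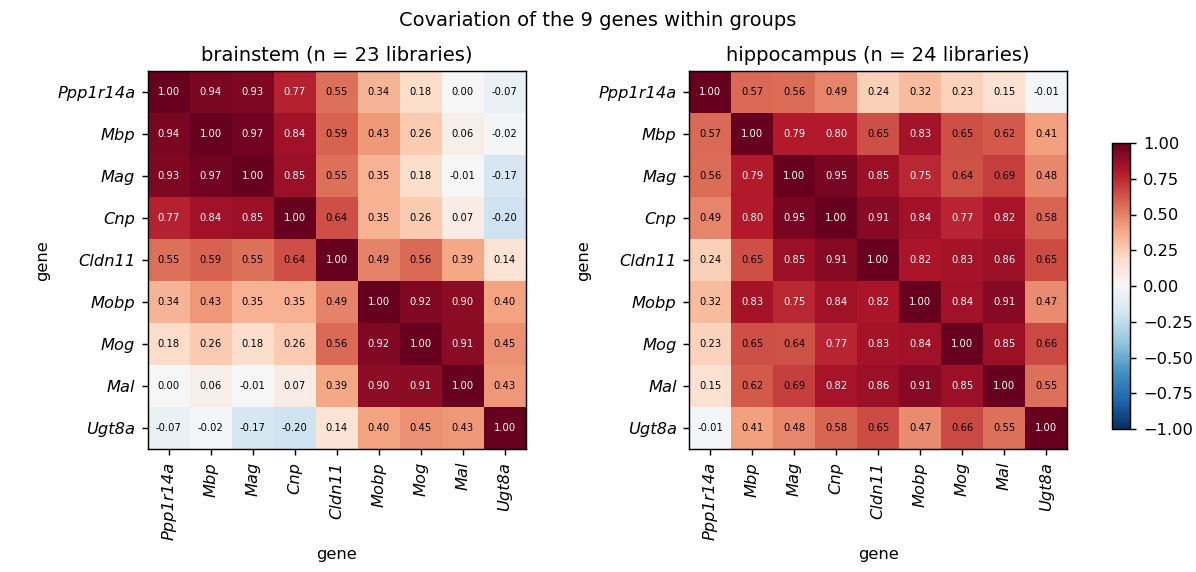
Pearson's r (colour and number) between each pair of the 9 genes over libraries of brainstem (left, n = 23) and hippocampus (right, n = 24), from deviations of log2 CPM from the group mean. In brainstem *Ppp1r14a*, *Mbp*, *Mag* and *Cnp* form 1 square at 0.77 to 0.97 and *Mobp*, *Mog* and *Mal* another at 0.90 to 0.92; in hippocampus the myelin genes are positive throughout.

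By Pearson's r in brainstem, the GC slope rose with *Ppp1r14a*, *Mag*, *Mbp* and *Cnp* and fell with *Mal*. The slope is taken from the same counts over all tested genes. A gene of high GC content thus tends to rise with it, and one of low GC content to fall. How many other genes of like GC content did so was not counted. The GC slope of a brainstem library had r = 0.74 with *Ppp1r14a* (adjusted permutation p = 0.00416; rho = 0.63, adjusted permutation p = 0.0195), 0.79 with *Mag* (adjusted permutation p = 0.00663; rho = 0.57, adjusted permutation p = 0.0378) and 0.72 with *Mbp* (adjusted permutation p = 0.00897; rho = 0.49, adjusted permutation p = 0.0582), within groups and over 23 libraries. It had r = −0.59 with *Mal* (adjusted permutation p = 0.0201; rho = −0.68, adjusted permutation p = 0.0195) and −0.49 with *Ugt8a* (adjusted permutation p = 0.0749; rho = −0.58, adjusted permutation p = 0.0389). Without the 2 farthest libraries these r were 0.52, 0.53, 0.44, −0.72 and −0.40. *Cnp* had r = 0.65 (adjusted permutation p = 0.0457) and rho = 0.50 (adjusted permutation p = 0.0803), with r = 0.36 without the 2 farthest. *Mog* and *Mobp* had r = −0.39 and −0.26 (adjusted permutation p = 0.167 and 0.356; rho = −0.39 and −0.24, adjusted permutation p = 0.188 and 0.444). *Cldn11* had r = 0.245 (adjusted permutation p = 0.419) and rho = 0.183 (adjusted permutation p = 0.528), with r = −0.059 without the 2 farthest. GC content was 61.7% for *Ppp1r14a*, 57.6% for *Mag*, 54.8% for *Cnp*, 53.3% for *Mobp* and 51% for *Mbp*. It was 50.9% for *Cldn11*, 50% for *Mog*, 48.9% for *Mal* and 38% for *Ugt8a*. So *Mbp* ran with the set of higher GC content and *Mobp* with the other. In hippocampus r with the GC slope was 0.59 for *Ppp1r14a* (adjusted permutation p = 0.0201, and rho = 0.55 with adjusted permutation p = 0.0535, n = 24). For *Mbp*, *Mag* and *Cnp* it was 0.32, 0.14 and −0.04 there (adjusted permutation p = 0.305, 0.653 and 0.872). Their rho was 0.37, 0.11 and 0.01 (adjusted permutation p = 0.188, 0.695 and 0.968). The lowest adjusted permutation p of r among the 8 myelin genes there was 0.145, for *Ugt8a* (r = −0.44). The part of GC content in these relations was not tested beyond the GC correction above.

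Among all genes tested in brainstem, *Mbp* and *Mag* were the first and second most like *Ppp1r14a* by Pearson's r of within-group deviations, over 23 libraries and 13339 genes. At ranks 4 and 5 were *2210016L21Rik* (r = 0.93) and *Gm8730* (r = 0.93), known by their database names. *Cnp* was at rank 390, *Cldn11* at 1701, *Mobp* at 3320, *Mog* at 4648, *Mal* at 6502 and *Ugt8a* at 7173. The 100 genes most like it had a median GC content of 56.3% and a median exon length of 1729 bases, against 49.3% and 4380 bases over all tested genes. In hippocampus the 5 most alike of 13272 genes were *Dnajb2* (0.77), *Gna12* (0.76), *Fam102a* (0.74), *Abtb1* (0.73) and *Sox10* (0.72), with *Mbp* at rank 156, *Mag* at 169 and *Cnp* at 486. There the 100 most alike had a median GC content of 56.9%, against 49.4% over all. *Mbp*, *Mag* and *Cnp* were therefore the nearest of the 8 myelin genes in both regions. As for other cells, r with the mean of the smooth muscle genes was 0.24 in brainstem (permutation p = 0.306, adjusted 0.419; rho = 0.36, permutation p = 0.1, adjusted 0.188) and 0.17 in hippocampus (permutation p = 0.442, adjusted 0.547; rho = 0.18, permutation p = 0.421, adjusted 0.528).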

How the data were processed

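RNA was poly(A)-selected, and the authors sequenced single-end reads, aligned them with STAR 2.7.9a to the Ensembl v104 mouse genome plus the human transgene, and deposited whole-number read counts for each gene, not normalized. FastQC 0.11.9 and DESeq2 1.32.0 also stand in the submitters' processing notes. The counting tool and its strand setting are not given in the sources used here. *Cnp* shares 154 of its 3639 exon bases with *Dnajc7* on the opposite strand, and *Mobp* 79 of 6849 with *Gm38642* on its own strand, so reads there cannot be told apart. Symbols, exon length and GC content came from GENCODE M21 (GRCm38), a build other than that of the counts, so no coordinates are given for them. Promoters came from RefSeq on GRCm38.p6 and were found for 8 of the 9 genes.

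Groups were taken from the labels, and none of the 47 libraries was left out. Within each region, genes whose count averaged 50 or more over libraries were tested with the quasi-likelihood test of edgeR 4.0.16 (R 4.3.3) on TMM-normalized counts, with 4 group means and the 4 surrogate variables that sva 3.50.0 estimated. Regions were compared in 1 model of 8 group means without surrogate variables. Benjamini-Hochberg adjustment of p values ran over every gene tested, and standard errors were derived from the F statistic. CPM and RPKM divide by TMM-scaled library totals. Log2 CPM used a prior count of 2. Python 3.11.15 served for values, correlations and figures. The functions were run on simulated data only without surrogate variables, so that step was not covered. Labels give replicate numbers but not litters, so p values measure the spread between libraries. Libraries were not paired by replicate number in the main models. Same-numbered libraries of different groups had correlations from −0.31 to 0.40 in brainstem and from −0.15 to 0.41 in hippocampus. Their medians were 0.039 and 0.065, against −0.026 and −0.042 for different numbers. Over 0.1 were 10 of 26 and 15 of 36, against 60 of 172 and 43 of 180. Between regions, libraries of the same group and number had a median correlation of 0.124 (10 of 17 over 0.1), against −0.024 (31 of 121) for different numbers, and labels do not say whether they share a mouse.

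The genes and gene lists were chosen with earlier results of these data known. Named genes are the 9 genes, a list of lineage, smooth muscle and phosphatase genes, and the 5 genes most like *Ppp1r14a* in each region. Some genes that this rule names are not reported here. *Pmp2*, of the Schwann cell list, was not analysed here. The neuron, astrocyte, microglia, endothelial, choroid plexus and axon partner lists gave 1 call within regions, *Cldn5* in brainstem for TG SD over WT SD (log2 fold change 0.39, SE 0.0836, adjusted p = 0.0284). The closing section gives the alternatives tried.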

Additional observations from a re-analysis of the deposited data

Results flagged for a closer look

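Of 72 groups of libraries, 9 genes in 8 groups, 7 held a library that stood far from the others by Dixon's test, where chance gives about 3.6. 3 of them were brainstem TG HFD replicate 3, lowest for *Ppp1r14a* (7.19 CPM, next 11.8), *Mbp* (4216 CPM, next 6922) and *Mag* (303.7 CPM, next 461.3). *Mal* was highest in brainstem WT SD replicate 6 (735.8 CPM, next 484.9), in hippocampus WT SD replicate 6 (246.5 CPM, next 165.3) and in brainstem WT HFD replicate 1 (529.2 CPM, next 457.2). *Mobp* was lowest in hippocampus TG HFD replicate 4 (428.9 CPM, next 525.1).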

How the results depend on the processing

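Among the 8 myelin genes, no call changed under any alternative; counts over all genes did change, as with DESeq2 above. These were DESeq2, RLE or library totals for scaling, 0 to 3 surrogate variables, other filters, no fold threshold, a GC correction, a replicate block, models of fewer groups, and single libraries left out. Single log2 values were also followed, within regions and for the difference in interaction between them, with *Ppp1r14a* included. Of 1227 such values 204 changed sign under an alternative, and 225 of 2418 with a library left out. None of those of the 8 myelin genes was called. All 8 myelin genes kept their call between regions throughout.

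The correlation of *Ppp1r14a* with the mean of the other genes fell to 0.316 in brainstem (permutation p = 0.183) and rose to 0.547 in hippocampus (permutation p = 0.0224) once surrogate variables were regressed out; the cause was not tested. With a library left out it ranged from 0.489, without TG HFD replicate 3, to 0.754 in brainstem, and from 0.239 to 0.511 in hippocampus.

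With the replicate block and no surrogate variables, none of the 8 myelin genes was called within a region (edgeR, lowest adjusted p 0.225 in brainstem and 0.25 in hippocampus). The *Ppp1r14a* interaction in brainstem was −0.67 (SE 0.231). Between regions the block joined libraries of the same genotype, diet and number, and the 8 myelin genes stayed called. The 2 fits without brainstem TG HFD replicate 3 and without surrogate variables were chosen after seeing the data.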
